A study of Mus musculus with 4 samples.

Results

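Microglia that carried 1 wild-type copy of Trem2 were compared with microglia that carried none, after both groups of mice had been fed cuprizone. Trem2 heterozygous (Het) and Trem2 homozygous knockout (KO) cells were taken from their libraries by the deposited cell labels. Cells of the authors' clusters 03 and 07 were left out, and the other 6 clusters (01, 02, 04, 05, 06 and 08) were pooled. That left 695 of 802 Het cells and 753 of 885 KO cells, 1448 of the 3023 cells of the series. The series holds 4 libraries of single-cell RNA-seq, and the other two, wild type (WT, Trem2 +/+) on control diet with 479 pooled cells and WT on cuprizone with 663, serve as reference levels. All mice were male and 12 to 14 months old. Cuprizone, which chelates copper, kills oligodendrocytes and thereby causes demyelination, was fed at 0.2% for 12 weeks. Each library pools sorted live CD11b+ CD45low brain cells of 2 animals. There is 1 library per group, so differences below are without a replicate check, no test between genotypes was possible, and animal, sort and library effects cannot be told apart from genotype. The labels do not name the knockout allele.

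TREM2 is a surface receptor of microglia that binds lipids, lipoproteins and myelin debris. It has almost no signalling tail of its own and works through the adaptor TYROBP (DAP12), which recruits the kinase SYK. Microglia that meet amyloid or damaged myelin pass into a disease-associated state (DAM), whose early stage is described as independent of TREM2 and whose late stage, with genes of lipid metabolism and phagocytosis, as dependent on it.

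Levels are unique molecular identifiers (UMIs, one per captured transcript) summed over the pooled cells of a library and scaled to 1e+06 UMIs of the library's pool (CPM). The pools held 3638474, 6175520, 6552603 and 6514310 UMIs in WT control, WT cuprizone, Het and KO, and 4 levels in a row below follow that order. Intervals in parentheses are 95% intervals of counting error only. A gene is called where the ratio reaches the stated fold, its interval excludes 1 and both libraries together hold at least 50 UMIs. All 13 microglia markers had 50 UMIs, and 12 of them differed by less than 1.5-fold between KO and Het, Trem2 being the other. A summed level cannot by itself tell fewer cells with a transcript from less of it per cell.

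Trem2 (ENSMUSG00000023992, GRCm38 chromosome 17, 48346401 to 48354147, plus strand) checks the labels first. It stood at 3132, 2939, 1763 and 520.1 CPM. The Het level was 0.600 (0.586 to 0.614) of WT on cuprizone, and the KO level lay 3.39-fold (3.26 to 3.52) below Het. The order of the levels followed the genotypes, and KO was lower than Het in each of the 6 clusters, from 2.69-fold in cluster 08 to 4.42-fold in cluster 05. Reads counted at the 3′ end may lie outside a deleted part, so the 520.1 CPM in KO does not measure functional transcript.

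Between KO and Het the difference was mostly one-sided. Of 9259 genes with 50 UMIs, 144 (1.56%) were at least 2-fold lower in KO and 19 (0.205%) at least 2-fold higher. At 1.5-fold 337 (3.64%) were lower and 120 (1.3%) higher. Among genes with at least 200 UMIs, the limit for the genes named here, the lowest KO to Het ratios were those of the secreted matrix protein osteopontin (Spp1), the integrin of CD11c (Itgax), the oxysterol-making enzyme Ch25h, the chemokine Cxcl14 and lipoprotein lipase (Lpl). Below 200 UMIs, Ass1 (21.4-fold lower, 90 UMIs), Bhlhe40 (14.5-fold, 78 UMIs) and Gas7 (13.3-fold, 115 UMIs) lay in the same range. In Het the 5 genes with at least 200 UMIs stood at 0.846 (Spp1) to 1.46 (Itgax) times the WT cuprizone level. The median log2 ratio over all genes was 0.01, with a 5th percentile of -0.54 and a 95th percentile of 0.42. Gene models and pseudogenes made up 5 of the lower and 1 of the higher genes. A single cell held more than 50% of the UMIs in KO or Het for 12 of the 144 and 1 of the 19.

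Promoters of 3 of the lower genes are shown as examples, taken from those that hold a match to a motif of a factor active in myeloid cells. Named genes without a match are listed further below. Each run is the 250 bases before a RefSeq transcript start (for Spp1, the first of 2 in the table, the other holding no match) on GRCm38.p6, read 5′ to 3′ on the gene's strand. Capitals mark the matches: for Spp1 (chr5:104434861-104435110, plus strand), in this order, the interferon element (GAAA, any 2 bases, GAAA), the PU.1 core GAGGAAGT and the sterol element TCACNCCAC; for Itgax (chr7:128129300-128129549, plus strand) the AP-1 motif TGACTCA; for Cd72 (chr4:43454627-43454876, minus strand) the PU.1 core. Both strands were searched. The Spp1 interferon match and the Itgax and Cd72 matches read as the reverse complement of the motif, and the matches printed do not overlap one another. Other named lower genes with matches in these 250 bases, not printed here, were Cxcl14 and Cybb (interferon element) and Il4i1 (PU.1 core). Pianp had a PU.1 match only after the start of a single transcript, at base 280, and none in its other promoters.

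Spp1: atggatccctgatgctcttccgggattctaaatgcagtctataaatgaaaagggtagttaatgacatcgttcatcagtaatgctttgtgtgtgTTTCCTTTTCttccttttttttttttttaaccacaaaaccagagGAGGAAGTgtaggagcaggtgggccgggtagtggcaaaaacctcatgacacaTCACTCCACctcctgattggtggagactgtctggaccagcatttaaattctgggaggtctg

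Itgax: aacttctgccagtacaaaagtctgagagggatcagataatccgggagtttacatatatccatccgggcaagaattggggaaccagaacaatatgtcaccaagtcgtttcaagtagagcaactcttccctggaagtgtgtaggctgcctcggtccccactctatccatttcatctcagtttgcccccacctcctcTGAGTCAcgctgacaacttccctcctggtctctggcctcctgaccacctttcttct

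Cd72: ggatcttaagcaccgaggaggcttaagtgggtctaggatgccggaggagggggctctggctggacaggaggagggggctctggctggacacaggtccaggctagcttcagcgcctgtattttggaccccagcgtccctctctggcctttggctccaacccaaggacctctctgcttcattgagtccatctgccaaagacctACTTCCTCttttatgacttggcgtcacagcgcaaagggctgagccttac

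The shares of promoters with a match were counted over stretches longer than the printed runs. These hold the 250 bases before the start and further bases after it. Over the promoters of genes at least 2-fold lower in KO, 123 promoters of 104 genes in the RefSeq table, the AP-1 motif was found in 6.5%, against 3.46% of the 9218 promoters of all tested genes. The PU.1 core was found in 5.69% against 3.42% and the interferon element in 4.88% against 3.11%. For the sterol element the shares were 0.813% and 1.14%, for the CLEAR E-box TCACGTG 1.63% and 6.55%, and for the loose NF-kB motif (GGG, any 5 bases, CC) 68.3% and 67.6%. Among all 32841 promoters of the same length the shares were 5.2% for AP-1, 3.2% for PU.1, 3.44% for the interferon element, 1.24% for the sterol element, 3.77% for the CLEAR E-box and 50.8% for NF-kB. These are matches of letters, counted without a test. The NF-kB motif was not marked in single promoters. None of the other 5 motifs was found in the promoters of Trem2 or of the named lower genes Axl, Ch25h, Crip1, Cxcl2 and Fam20c. Lpl and Rab7b had no promoter in the RefSeq table, and matches were not marked for Cd74.

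**Figure D1:**
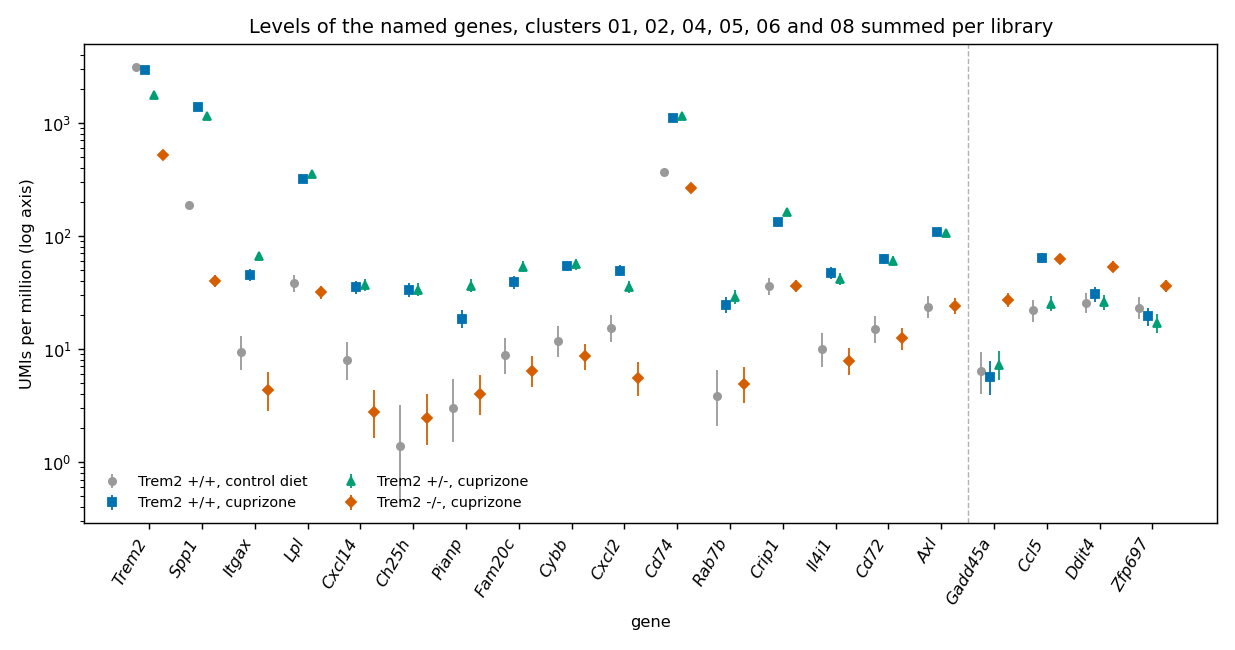
Levels of the named genes in the 4 pooled libraries, in CPM on a log axis, with 1 point per library and 95% Poisson intervals of counting error. Spp1, Lpl, Itgax and the other genes lower in KO lie high in WT on cuprizone and in Het and low in WT on control diet and in KO, while Trem2 steps down from WT to Het to KO.

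Spp1, which encodes osteopontin, had the largest difference among the named genes. The gene lies on GRCm38 chromosome 5, 104435118 to 104441050, plus strand. It stood at 188, 1369.9, 1158 and 39.8 CPM. Both the WT and the Het cuprizone libraries were high, and the KO library was below the control-diet library, in which 1 cell held 52.5% of the Spp1 UMIs. KO was 29.1-fold (25.7 to 33.1) lower than Het. Lpl, which frees fatty acids from lipoproteins, stood at 38.2, 320.1, 349 and 31.6 CPM and was 11.04-fold (9.57 to 12.8) lower in KO. Itgax, the alpha chain of the CD11c integrin, was at 9.34, 45.2, 65.9 and 4.30 CPM, a difference of 15.3-fold (10.5 to 23.4). For Lpl and Itgax too the KO level was below that of WT on control diet. For Lpl the intervals of these levels overlapped, 27.5 to 36.2 CPM in KO and 32.1 to 45.1 CPM on control diet. Axl, a receptor tyrosine kinase for apoptotic cells, was at 23.6, 109, 107 and 23.9 CPM and differed by 4.47-fold (3.75 to 5.35), its KO level being close to that on control diet.

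Ch25h makes the oxysterol 25-hydroxycholesterol. Its levels were 1.37, 33.2, 33.4 and 2.46 CPM, and KO was 13.6-fold (8.19 to 24.2) lower than Het. Cxcl14, a chemokine gene, was at 7.97, 34.98, 36.9 and 2.76 CPM, 13.4-fold (8.28 to 22.9) lower. Cxcl2, which attracts neutrophils, was at 15.4, 49.4, 35.4 and 5.53 CPM, 6.41-fold (4.50 to 9.37) lower. For these 3 genes the WT and Het cuprizone libraries were the high ones and the control-diet and KO libraries the low ones. Cybb, the catalytic subunit of the phagocyte oxidase, was 6.50-fold (4.89 to 8.77) lower in KO, and Fam20c, which phosphorylates secreted proteins, 8.31-fold (6.02 to 11.7) lower. Il4i1, a secreted amino acid oxidase, was 5.28-fold (3.90 to 7.27) lower, and Rab7b, a small GTPase of late endosomes, 5.87-fold (4.02 to 8.83) lower. Cd72, a C-type lectin receptor, was 4.86-fold (3.82 to 6.25) lower, Crip1, a LIM domain protein, 4.52-fold (3.92 to 5.23) and Pianp 9.10-fold (6.06 to 14.2). Their KO levels ran from 3.99 CPM (Pianp) to 36.1 CPM (Crip1) and their Het levels from 28.8 CPM (Rab7b) to 163 CPM (Crip1).

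Set beside WT on cuprizone, Het had 0.600 of the Trem2 level, but the 15 other lower genes did not share that step. The Het to WT ratio had an interval that held 1 for 7 of them, among them Axl at 0.983 (0.883 to 1.09), Ch25h at 1.01 (0.828 to 1.22) and Cybb at 1.03 (0.885 to 1.20). It lay above 1 for 6, with the largest values for Pianp, 1.97 (1.57 to 2.48), and Itgax, 1.46 (1.25 to 1.70). It lay below 1 for Spp1, 0.846 (0.820 to 0.872), and Cxcl2, 0.717 (0.602 to 0.853). The KO level was below the control-diet level for 10 of the 15, a count of levels without their intervals. Among these the KO and control-diet intervals overlapped for Lpl, Fam20c, Cybb, Il4i1 and Cd72. These genes were chosen for being high in Het against KO, and both ratios share the Het library, so the values are given side by side only.

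Higher in KO were 4 named genes. Gadd45a, induced by DNA damage and other stress, stood at 6.32, 5.67, 7.17 and 27.2 CPM and was 3.79-fold (2.73 to 5.34) higher in KO than in Het. The other 3 libraries were alike and low for it. Ddit4, an inhibitor of the mTOR kinase complex, was at 25.6, 30.4, 25.9 and 53.4 CPM, 2.06-fold (1.71 to 2.49) higher. Zfp697, a zinc finger gene, was at 23.1, 19.4, 16.9 and 36.1 CPM, 2.13-fold (1.69 to 2.69) higher. For Ddit4 and Zfp697 too KO was the highest of the 4 libraries. The chemokine Ccl5 stood at 21.99, 63.6, 25.2 and 62.9 CPM, 2.499-fold (2.08 to 3.01) higher in KO. It rests on few cells, since 1 cell held 53.9% of its UMIs in Het, 29.5% in KO and 68.4% in WT on cuprizone. Just inside the 2-fold limit lay Tmsb10 at 2.004-fold, Mmp12 at 2.04-fold and Apoe at 2.07-fold lower, and just outside it Tubb6 at 1.97-fold and Ccl6 at 1.96-fold lower and Camk2n1 at 1.92-fold higher.

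The size of several pooled differences depends on cluster 04, which held 150 Het cells and 13 KO cells. With each cluster weighted by its share of Het UMIs, Spp1 was 5.90-fold lower in KO, Lpl 3.16-fold, Cybb 1.80-fold, Crip1 1.93-fold, Cd74 1.33-fold and Cd72 1.05-fold, so that the last 4 no longer reached 2-fold. Weighting leans on those 13 KO cells. With cluster 04 left out and the others weighted in the same way, the differences were 9.56-fold for Spp1, 6.82-fold for Lpl, 4.95-fold for Cybb, 3.21-fold for Crip1, 3.25-fold for Cd74 and 4.40-fold for Cd72. Trem2 barely moved, at 3.32-fold and 3.45-fold, while Itgax was at 10.4-fold and 9.47-fold. Ch25h was at 9.91-fold and 5.62-fold and Il4i1 at 5.31-fold and 2.36-fold. Of the genes higher in KO, Ddit4 and Zfp697 lay under 2-fold with Het weights over all pooled clusters, at log2 ratios of 0.82 and 0.99. In the unweighted pool without cluster 04 they were at 0.80 and 0.84. Weighted and without cluster 04, the Het to KO ratio was 0.517 for Ddit4, 0.529 for Zfp697 and 0.552 for Ccl5, each a difference under 2-fold. Ccl5 was at a log2 ratio of 0.71 in the unweighted pool without cluster 08, and Gadd45a stayed past 2-fold in each of these settings. The clusters were built by the authors from the same cells and genes, so the numbers of cells per cluster are not read as a result.

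The next comparison asked what became of the WT response to cuprizone. Its genes were taken from WT on cuprizone against WT on control diet, and neither of those libraries enters the KO to Het ratio. Of 8819 genes 123 (1.39%) were at least 2-fold higher on cuprizone in WT and 52 (0.59%) at least 2-fold lower. Among the 123, 107 were below Het in KO and 16 above, with a median log2 ratio of -1.05 (quartiles -1.70 and -0.36) against 0.01 for all genes. Of the 116 with 50 UMIs, 74 were at least 1.5-fold lower in KO, 5 at least 1.5-fold higher and 37 neither. At that fold 3.64% of all tested genes were lower and 1.3% higher. The 52 genes that were lower on cuprizone had a median of 0.05, and of their 49 with 50 UMIs 2 were lower in KO, 6 higher and 41 neither. More members passed 1.5-fold among the genes high on cuprizone in WT than among those low on it.

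The response did not move as a block. All 8 of its late-stage DAM genes and 19 of its 21 further demyelination genes were at least 1.5-fold lower in KO. So were all 4 of its MHC class II genes and all 4 of its cholesterol efflux genes, where 3.64% of all tested genes were. The efflux genes Ch25h, Apoc1 and Apoc4 are also counted among the 21. All 4 neutrophil markers of the response were lower as well, and their summed levels stand with the other cell types at the end. Of its 12 interferon genes 2 were lower and 1 higher, with a median of -0.07. The 5 members higher in KO were Ccl5, Rsad2, Ifit3b, Pcp4 and the haemoglobin gene Hbb-bs. Without cluster 04 the median of the 123 was -0.61, and with clusters weighted as in Het it was -0.25 with 45 members lower.

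**Figure D2:**
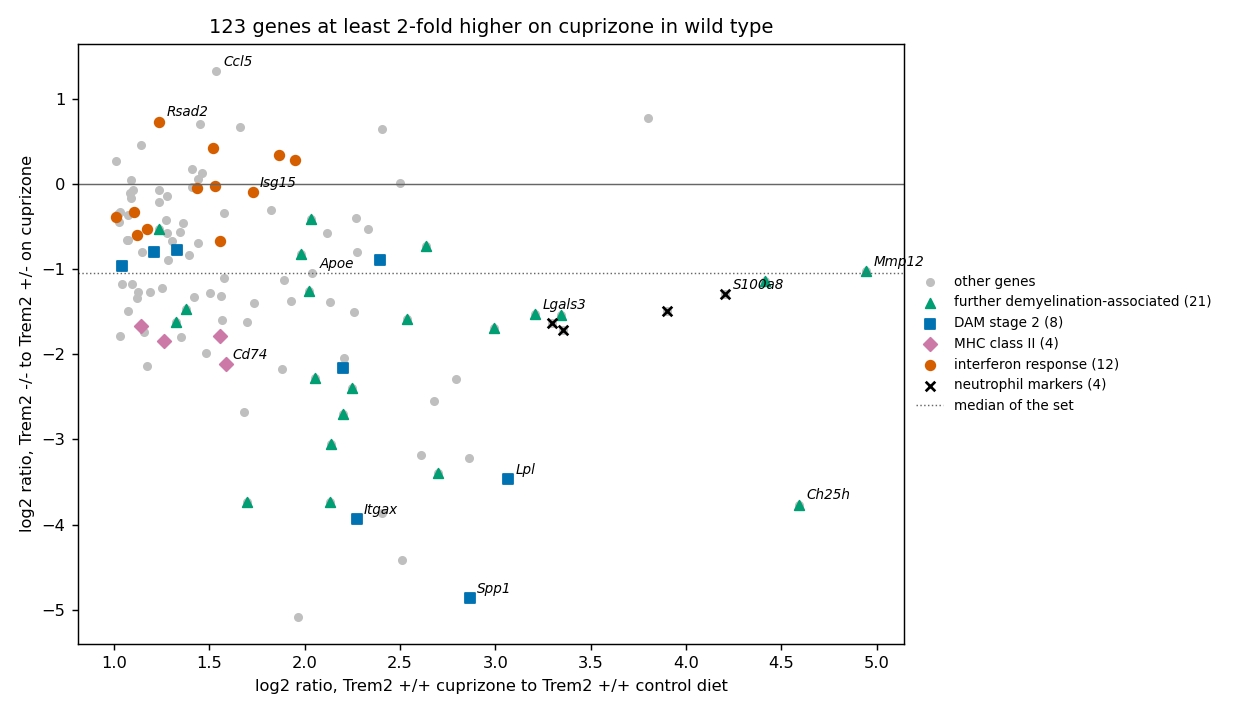
Each point is a gene called 2-fold higher on cuprizone in WT, with its log2 ratio of WT cuprizone to WT control on the x axis and its log2 ratio of KO to Het on the y axis. Of the 123 genes 107 lie below 0 on the y axis, with Spp1, Ch25h and Lpl far below and Ccl5 above.

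By function, the list of further demyelination-associated genes had the lowest median of the lists other than cell type markers. Of its 25 members with 50 UMIs, 19 were at least 1.5-fold lower in KO and 0 higher (median log2 -1.53), where 3.64% and 1.3% of all genes were. Those shares, 3.64% lower and 1.3% higher, are the background for every pooled list count that follows. This list was chosen with earlier results of these data known. Its counts here, within clusters and per cell are therefore descriptions and not independent support. Summed, the list stood at 455, 1550.5, 1740.4 and 702 CPM. Lgals3, a galectin of phagocytes, was at 30.5, 282, 318 and 110.2 CPM and 2.89-fold (2.65 to 3.15) lower in KO. Igf1, a growth factor for oligodendrocyte precursors, was at 9.34, 54.2, 83.0 and 27.6 CPM, 3.005-fold (2.53 to 3.58) lower, and Fabp5, a carrier of fatty acids, at 10.2, 80.8, 109 and 33.8 CPM, 3.23-fold (2.77 to 3.77) lower. Unlike Spp1, these 3 stayed above the control-diet level in KO. Gpnmb, a glycoprotein of lipid-laden phagocytes, was 2.91-fold (2.32 to 3.67) lower and the intermediate filament gene Vim 3.07-fold (2.34 to 4.06). The metalloprotease Mmp12 was 2.04-fold (1.56 to 2.69) lower, with 70.7% of its KO UMIs in 1 cell.

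Late-stage DAM genes divided into 2 sets. Of 17 members with 50 UMIs, 8 were at least 1.5-fold lower in KO and 0 higher (median -0.35): Spp1, Lpl, Itgax and Axl, and with smaller differences Ccl6 (1.96-fold, 1.85 to 2.08), Cst7 (1.86-fold, 1.74 to 1.99), Csf1 (1.74-fold, 1.53 to 1.99) and Ank (1.72-fold, 1.42 to 2.07). Cst7, an inhibitor of lysosomal proteases, was at 62.9, 331, 391 and 210.0 CPM, so KO kept more than the control-diet level. The abundant members lay near 1: the KO to Het ratio was 1.06 for the tetraspanin Cd9, 1.12 for cathepsin L (Ctsl) and 0.926 for Cd68. The summed list, which these genes dominate, stood at 7415, 10944, 11129 and 9398 CPM. Without cluster 04 the median was 0.0032.

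In the early DAM stage 2 of 9 members were lower, Apoe and Lyz2 (median -0.05, which turned to 0.13 without cluster 04). Apoe, the lipoprotein through which glia move cholesterol, stood at 4956, 20386, 31627 and 15283 CPM. KO was 2.07-fold (2.05 to 2.09) below Het, the highest library, and still far above control diet. Within clusters 01, 04, 06 and 08 0 of the 9 early-stage members, Apoe included, were at least 1.5-fold lower in KO. In cluster 02 and in cluster 05 it was 1 of 9. Homeostatic genes lay slightly on the other side, with 0 of 24 members past 1.5-fold and a median of 0.20, which was -0.0038 without cluster 04. P2ry12, a purine receptor of resting microglia, was at 3129.9, 2227, 2182 and 2658 CPM, and Tmem119 at 2146, 1745, 1573 and 1866 CPM. For both, KO lay between the control-diet library and the other 2 cuprizone libraries.

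Among TREM2's signalling partners 0 of 17 were called at 1.5-fold (median 0.06). The adaptor Tyrobp was at 4199, 4908, 4772 and 4774 CPM, a KO to Het ratio of 1.0005 (0.985 to 1.02). The ratio was 1.15 (0.952 to 1.40) for Syk and 0.9996 (0.853 to 1.17) for the phospholipase Plcg2.

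**Figure D3:**
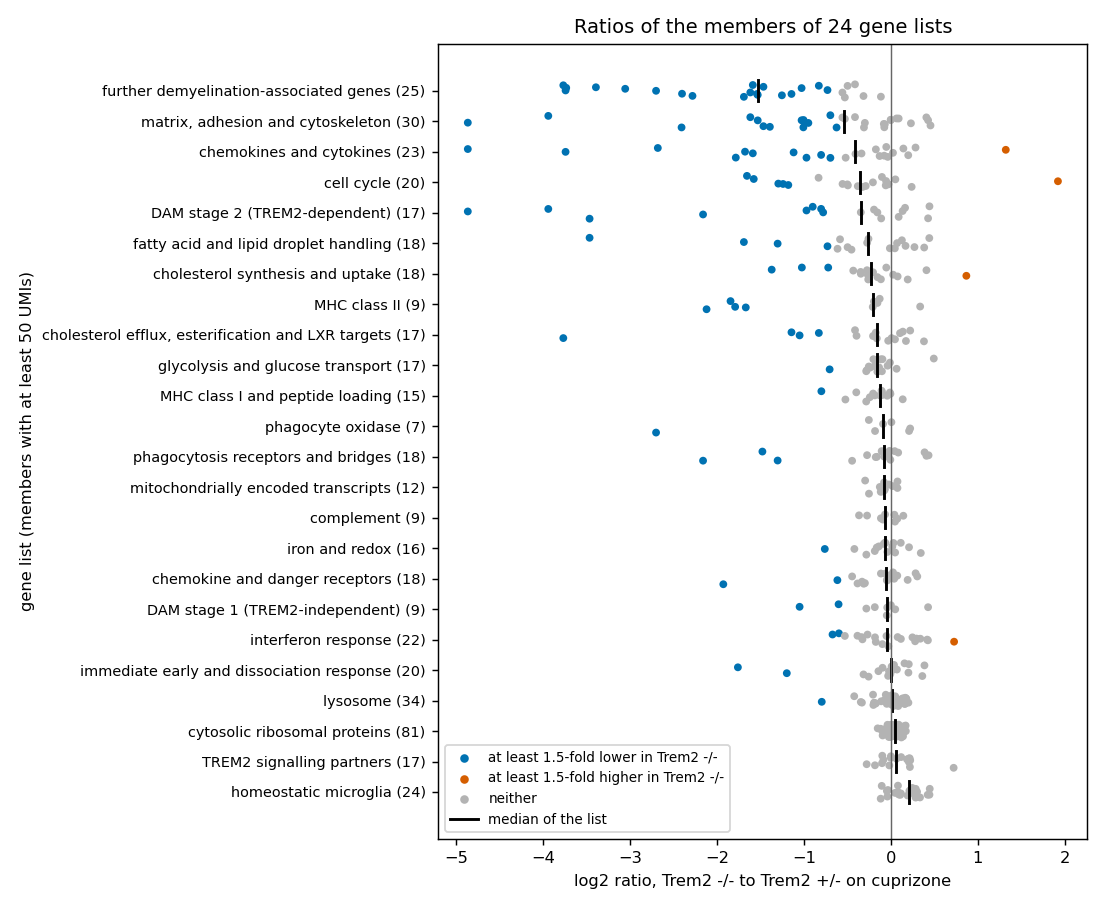
Log2 ratio of KO to Het for every member with 50 UMIs of each gene list, with the list's median marked. The further demyelination genes (median -1.53) lie to the low side, and the TREM2 signalling partners (0.06), lysosome (0.02) and homeostatic genes (0.20) lie around or above 0.

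Lipid genes differed in a few steps of the pathway. The counts stand beside 3.64% of all tested genes at least 1.5-fold lower in KO and 1.3% higher. In cholesterol efflux 4 of 17 members were lower in KO and 0 higher: Ch25h, Apoe, Apoc1 (2.21-fold, 1.84 to 2.66) and Apoc4 (1.78-fold, 1.35 to 2.35). The exporters were not, with KO to Het ratios of 1.1001 (0.979 to 1.24) for Abca1 and 1.30 (1.15 to 1.47) for Abcg1, and the lysosomal cholesterol carrier Npc2 was at 1.13. Apoc1 stood at 1.37, 29.3, 58.3 and 26.4 CPM. Its KO level was close to that of WT on cuprizone (ratio 0.901, 0.727 to 1.12), and Het was the highest library. In cholesterol synthesis 3 of 18 were lower, Idi1 (2.58-fold, 1.39 to 5.05), the transcription factor Srebf2 (2.03-fold, 1.41 to 2.97) and its regulator Insig1 (1.65-fold, 1.21 to 2.25), and 1, Mvd, was higher (1.83-fold, 1.12 to 3.04). Fatty acid handling had 4 of 18 lower, Lpl, Fabp5, Fabp3 and the scavenger receptor Cd36 (2.47-fold, 1.53 to 4.09). The lysosome list, with 1 of 34 members lower (Gla, 1.73-fold, 1.20 to 2.54) and a median of 0.02, held near 1.

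MHC class II, the antigen display for helper T cells, differed in some of its members. Of 9 members 4 were at least 1.5-fold lower and 0 higher (median -0.21), where 3.64% and 1.3% of all tested genes were. The invariant chain Cd74 was at 366, 1097, 1156 and 266 CPM, 4.34-fold (4.12 to 4.58) lower in KO. H2-Ab1 was at 105, 231, 270.3 and 85.0 CPM, 3.18-fold (2.89 to 3.50) lower, H2-Aa 3.46-fold (3.09 to 3.88) and H2-Eb1 3.59-fold (3.07 to 4.21). All 4 stood below control diet in KO, H2-Aa only narrowly (59.6 against 62.4 CPM), while the peptide loader H2-DMa had a KO to Het ratio of 0.899. Border-associated macrophage markers, of cells that also carry MHC class II, were also lower, 6 of 11 with 50 UMIs, and summed to 374, 432, 440.3 and 310.1 CPM. Without the 5% of cells with the largest share of those markers the marker sums were 266 in Het and 227 in KO, and MHC class II stood at 2383 in Het and 1051 in KO. MHC class I had 1 of 15 members lower, H2-Q6 (1.74-fold, 1.29 to 2.36), whose reads are hard to tell from those of near-identical copies. Over every deposited cell, clusters 03 and 07 included, the log2 ratio of Cd74 was -0.72 in place of -2.12.

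Chemokines and cytokines had 10 of 23 members lower in KO and 1 higher, Ccl5 (median -0.41), against 3.64% and 1.3% of all tested genes. Besides Spp1, Igf1, Cxcl14 and Cxcl2, Ccl7 was 3.44-fold (2.76 to 4.32) lower, the T cell co-stimulator Tnfsf9 3.20-fold (2.32 to 4.47), Cxcl16 2.17-fold (1.94 to 2.43) and the cytokine Il1b 1.62-fold (1.49 to 1.76). The most abundant members went the other way by less than 1.5-fold: Ccl4 was at 4396, 4158, 3501 and 4021 CPM and Ccl3 at 1928, 1807, 1458 and 1775 CPM. Phagocytosis receptors had 3 of 18 lower, Axl, Msr1 (2.78-fold, 1.64 to 4.90) and Cd36, whereas Mertk, the other abundant receptor of Axl's family, was at 201, 152, 169 and 168 CPM, a KO to Het ratio of 0.996 (0.915 to 1.08).

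Of 22 interferon response genes 2 were at least 1.5-fold lower in KO, Ifi204 (1.59-fold, 1.32 to 1.93) and Oasl2 (1.51-fold, 1.15 to 1.99). Higher was 1, Rsad2 (1.66-fold, 1.14 to 2.42), and the median was -0.04. Of all genes 3.64% were lower and 1.3% higher. Clusters differed: 4 of 20 were lower in cluster 02, 2 of 9 in cluster 05 and 3 of 15 in cluster 08, with 0 higher. In cluster 04, with its 13 KO cells, 10 of 15 were higher and 0 lower (median 1.32), where 6.31% of all genes were higher. There a single KO cell held 61.2% of the 49 KO UMIs of Isg15, and a single KO cell 60% of the 50 of Ifit3. How far the count of 10 rests on such cells was not tested. Isg15, an ubiquitin-like protein, was at 27.5, 91.0, 51.7 and 48.4 CPM, and Ifit3 at 20.3, 58.3, 46.5 and 62.2 CPM. Isg15 stood lower in both Het and KO than in WT on cuprizone. The genes of matrix and cytoskeleton (14 of 30 lower, median -0.54) share Vim and the galectins with the demyelination list, and in clusters weighted as in Het their median was 0.09. Of the oxidase subunits only Cybb, 1 of 7, was lower. Complement (0 of 9), ribosomal proteins (0 of 81) and mitochondrially encoded transcripts (0 of 12) had no member past 1.5-fold.

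Within the clusters the differences were compared cell group by cell group. In KO against Het at 1.5-fold, the shares of tested genes lower and higher were 2.6% and 2.26% in cluster 01, 3.37% and 1.48% in cluster 02, 3.48% and 6.31% in cluster 04, 2.44% and 1.57% in cluster 05, 3.71% and 1.96% in cluster 06 and 3.08% and 2.88% in cluster 08. Cluster 02, with 144 Het and 213 KO cells, had the most genes to test, 7715. It is a large part of the pool, with 3500626 of the KO and 2623039 of the Het UMIs, so its values are no independent repeat of the pooled ones. In it 15 of 20 further demyelination genes were lower in KO and 0 higher, as were 5 of 17 late-stage DAM genes and 4 of 9 MHC class II genes. Spp1 was at 302 CPM in Het and 25.1 in KO, 12.0-fold (9.64 to 15.2) lower, Itgax 15.04-fold (8.12 to 30.9), Lpl 7.51-fold (6.01 to 9.49), Gpnmb 8.01-fold (4.31 to 16.2) and Cd74 3.72-fold (3.45 to 4.02). In the same cluster 6 of the border macrophage markers were lower in KO, the largest being Cd209f at 3.61-fold, and their summed level was 596 CPM in Het and 372 in KO. Whether such cells carry part of these differences in cluster 02 was not tested.

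Cluster 08, with 77 Het and 175 KO cells, gave other values for some genes. Cd74 (3.38-fold, 2.84 to 4.02), Axl (3.55-fold, 2.38 to 5.32) and Crip1 (3.57-fold, 2.45 to 5.22) were lower in KO by sizes like those in cluster 02. Spp1 and Lpl were lower by 1.81-fold and 1.75-fold, and 1 cell held 53.7% of the 67 KO UMIs of Spp1. Lgals3, at 100.2 CPM in Het and 97.7 in KO, had an interval that held 1. Of 16 late-stage DAM genes 3 were lower and 3 higher, the last being Hif1a (2.19-fold, 1.39 to 3.61), Timp2 (1.64-fold, 1.48 to 1.81) and Serpine2 (1.59-fold, 1.41 to 1.79). The vesicle protein gene Syngr1 was 2.39-fold (2.11 to 2.72) higher in KO in this cluster, and Ramp1, a receptor partner, 2.25-fold (1.57 to 3.31). Gadd45a was higher in KO both in cluster 02, 5.25-fold (2.85 to 10.6), and in cluster 08, 7.08-fold (2.31 to 35.3). Whether clusters 02 and 08 differ in these ratios was not tested.

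In cluster 04 the KO side rests on 13 cells. The further demyelination list went the other way there, with 6 of 24 members lower in KO and 8 higher (median 0.22), and its summed level was 3994 CPM in Het and 7745 in KO. Spp1 (5.60-fold, 4.57 to 6.93), Lpl (2.57-fold, 1.94 to 3.47), Cst7 (4.78-fold, 3.27 to 7.28) and Ccl6 (6.33-fold, 4.12 to 10.2) were lower in KO, and 1 of the 13 cells held 69.5% of the KO Spp1 UMIs. Cd74 stood at 2459 CPM in Het and 2642 in KO. Lgals3 was 3.23-fold (2.88 to 3.61) higher in KO here, and Mmp12 9.12-fold (6.65 to 12.4), with 79.5% of the Mmp12 UMIs in 1 cell. Single KO cells also held 61.2% of Isg15 and 68.8% of Prdx1 UMIs among the genes higher in this cluster. Clusters 01, 05 and 06 held few UMIs of the demyelination genes. In them Trem2 was 3.60-fold (3.04 to 4.29), 4.42-fold (3.88 to 5.06) and 3.63-fold (3.14 to 4.22) lower in KO, and Lpl in cluster 05 was 34.6-fold (9.30 to 290.1) lower, a ratio of 88 UMIs in Het, 30.7% of them in 1 cell, to 2 in KO, both in 1 cell.

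**Figure D4:**
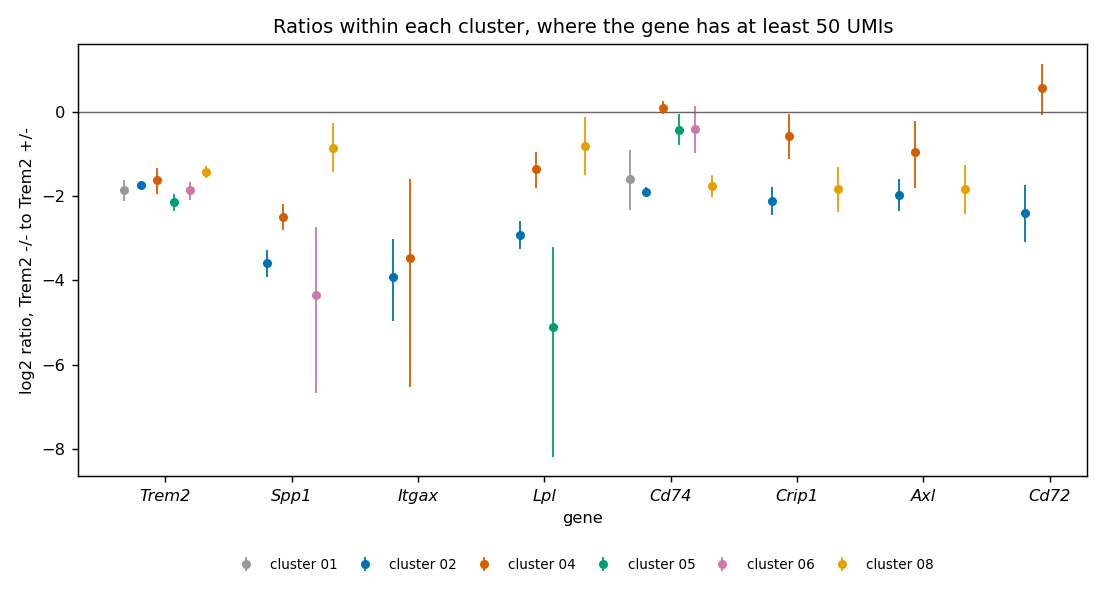
Log2 ratio of KO to Het (y axis) of 8 named genes (x axis) within the 6 pooled clusters, with 1 point per cluster in which the gene has at least 50 UMIs and 95% intervals of counting error. Trem2 is lower in KO in every cluster, Lpl lies nearer to 0 in cluster 08 than in cluster 02, as does Spp1, for which 1 cell holds 53.7% of the KO UMIs in cluster 08, and Cd74 lies near 0 in cluster 04.

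Per cell the same lists were counted after each cell had been thinned to 2915 UMIs. That kept 410, 604, 644 and 673 cells and left out 69, 59, 51 and 80 shallower ones. More than 4 UMIs of further demyelination genes, the 95th percentile of control diet, were found in 1.71% (0.689 to 3.49), 20.7% (17.5 to 24.1), 31.1% (27.5 to 34.8) and 6.98% (5.18 to 9.18) of cells. The Het library was the highest and the KO library stood between control diet and WT on cuprizone. Unthinned, the list made up a median of 0.0285%, 0.0583%, 0.0720% and 0.0373% of a cell's UMIs. Within cluster 02 the shares of cells past the limit were 0%, 13.01%, 20.8% and 4.69%, the same order of KO and Het as in the pool. In cluster 04 the shares in Het and KO were 90.4% and 84.6%, and the median thinned count was higher in KO, 19 UMIs against 11 in Het. More than 8 UMIs of MHC class II were found in 4.39%, 12.3%, 14.8% and 2.38%. Fewer homeostatic UMIs than the 5th percentile of control diet were found in 5.12%, 34.6%, 38.8% and 18.0%, so KO again lay between control diet and the other 2 cuprizone libraries. Late-stage DAM genes, whose count is led by Cd9 and cathepsin L, gave 3.90%, 18.2%, 23.9% and 20.2%. In cluster 08 that share was 25.3% (15.99 to 36.7) in Het and 52.0% (44.3 to 59.7) in KO, and the summed list was at 10063 and 13001 CPM. The part of free RNA in these counts was not tested.

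**Figure D5:**
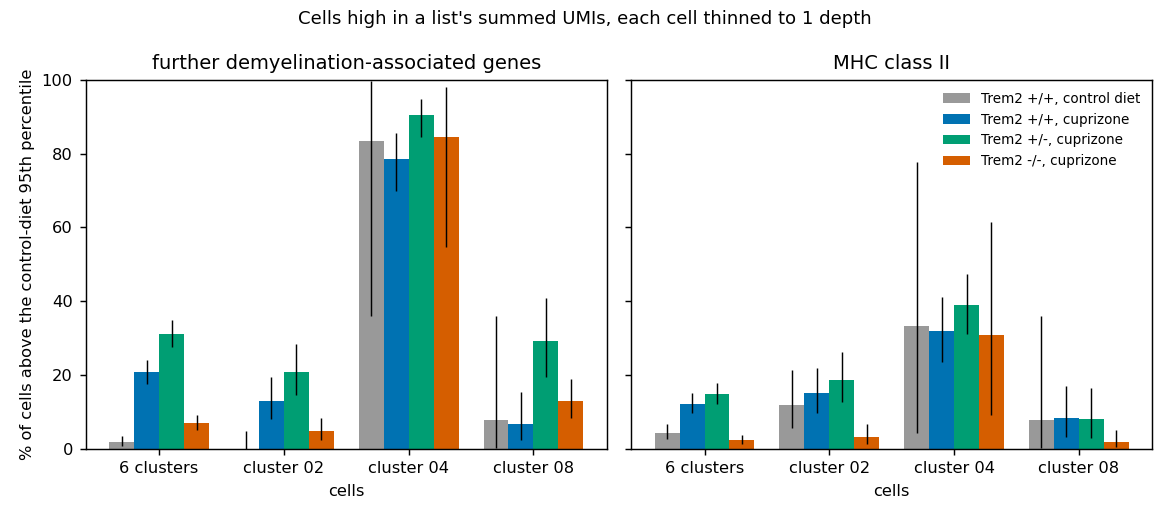
Percent of thinned cells past the control-diet limit (y axis) for the further demyelination and the MHC class II genes, in the pool and in clusters 02, 04 and 08 (x axis), with 1 bar per library and exact binomial 95% intervals. For further demyelination genes in the pool Het stands at 31.1% and KO at 6.98%.

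Markers of other cell types also differed between the pools. Neutrophil markers summed to 0.550, 48.7, 1778 and 648 CPM, and all 7 with 50 UMIs were lower in KO. In Het 13 cells held 90.5% of these UMIs and in KO 3 cells held 85.8%. Without those cells the sums were 176 and 93.0 CPM, and 125 genes were at least 2-fold lower in KO, 120 of them among the 144. Of 5 oligodendrocyte markers with 50 UMIs 3 were at least 1.5-fold higher in KO and 0 lower, where 1.3% of all genes were higher. Mbp (1.88-fold, 1.54 to 2.30) and Ptgds (1.69-fold, 1.06 to 2.72) were among them, and the list summed to 203, 150.1, 119.6 and 164 CPM. Of 3 endothelial markers with 50 UMIs 1 was lower in KO, Flt1 (9.31-fold, 4.99 to 19.2), and the list summed to 647, 654, 653 and 620.2 CPM. No marker of oligodendrocyte precursors, neurons or pericytes reached 50 UMIs. The part of these cells in the gene differences above was not tested beyond the values given.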

How the data were processed

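Single-cell transcripts of the 4 libraries were analysed from the deposited counts, which are integer UMI totals for each gene in each cell. Cell Ranger 2.1.1 and build mm10 were used by the authors, per the submitters' processing notes. The deposited table holds 12800 genes, each with a UMI in at least 8 cells, and 3023 cells. Library and cluster came from the authors' file of cells. No clustering parameters were found in the labels or files. The genes, lists and comparisons were chosen with earlier results of these data known.

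UMIs were summed per library, and per library and cluster, and scaled to the total (CPM). Ratios have exact conditional binomial (Clopper-Pearson) 95% intervals, CPM exact Poisson and shares of cells exact binomial ones. UMIs of a cell or animal are not independent, and these intervals cover counting error only. A library at 0 is set to a floor of 3 UMIs. Named are Trem2, up to 15 genes per direction (5 within a cluster, with 100 UMIs) with at least 200 UMIs whose interval bound lies farthest from 1, and list members with the most UMIs or the largest ratios. Gene models were counted, not named.

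The 24 lists and 15 marker lists were drawn up from textbook knowledge, with earlier results of these data known. Of 614 listed genes 574 were found, and Itgam, listed under 2 identifiers, was left out. Doublets were called with scrublet in scanpy 1.11.5, with a score limit of 0.2 set after the automatic limit had proved unstable, which marked 13 cells, 8 of them in KO. They were kept, and left out in an alternative. Of the cell barcodes 8 occur in more than 1 library and 0 in both KO and Het. TMM factors came from edgeR 4.0.16. The scripts were tested on simulated data. Promoter sequences are from RefSeq. Alternatives changed scaling, cells, weights and UMI minimum. Those without cluster 04, without clusters 04 and 08, and without cells rich in border macrophage markers were chosen after seeing the data. Values of 2 genes that the lists or the naming rule hold are not reported here.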

Additional observations from a re-analysis of the deposited data

Results flagged for a closer look

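Lgals3 went in opposite directions in 2 clusters. Its log2 ratio of KO to Het was -1.73 in cluster 02 and 1.69 in cluster 04. The difference was not tested, and cluster 04 holds 13 KO cells.

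In cluster 07, left out of the pool, the Het to control-diet interval lay above 1 for 11 of the 15 named genes lower in KO and held 1 for Fam20c, Cxcl2, Il4i1 and Cd72. Against control diet the Het library stood 15.9-fold higher there for Spp1 (10.3 to 25.9), 2.87-fold for Lpl (1.78 to 4.74) and 2.52-fold for Axl (1.78 to 3.60). That ratio holds diet and genotype together. WT on cuprizone stood at 126 CPM for Spp1, 49.6 for Lpl and 139.5 for Axl in this cluster, and Het at 324, 71.6 and 123 CPM. In the same cluster KO was 15.8-fold lower than Het for Spp1, 5.83-fold for Lpl and 2.06-fold for Axl.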

How the results depend on the processing

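No paired analysis was possible because each group has 1 library. TMM scaling kept all 144 lower and all 19 higher genes. The 144 lower genes became 233 at a minimum of 20 UMIs, 57 at 200 UMIs, 93 without cluster 04 (78 of them among the 144) and 79 without clusters 04 and 08. With Het weights 132 were called, 82 of them among the 144, and over every deposited cell 146, with 97 among the 144. The 19 higher genes became 33 over every deposited cell, 37 with clusters weighted as in Het, 55 at 20 UMIs, 4 at 200 UMIs, 12 without cluster 04 and 7 without clusters 04 and 08. The median log2 ratio of the 123 WT response genes, -1.05, was -0.79 over every deposited cell, -1.15 without cluster 08, -0.9997 without doublets and the deepest cells, -0.94 without neutrophil-rich cells, -0.98 as a mean of per-cell CPM, -0.25 with Het weights, -1.08 without the top cells, -0.90 at 20 UMIs, -1.50 at 200 UMIs, -0.61 without cluster 04 and -0.80 without clusters 04 and 08. Its 74 lower members became 45 with Het weights and 35 at 200 UMIs. The log2 ratio of Trem2, -1.76, was -1.85 without cluster 08.

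The median changed sign for homeostatic genes (-0.0010 with Het weights, -0.0038 without cluster 04), early DAM genes (0.064 with Het weights, 0.13 without cluster 04, 0.059 without clusters 04 and 08), late DAM genes (0.0032 without cluster 04), glycolysis (0.092 with Het weights), matrix genes (0.085 with Het weights) and microglia markers (-0.016 with Het weights, -0.0030 without cluster 04). Over every deposited cell it changed sign for T or NK cell (-0.38), oligodendrocyte (-0.072) and choroid plexus markers (0.18). The cause of these shifts was not tested. Depth limits clusters 01 and 06, where 2388 and 2398 genes had 50 UMIs.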

Other observations

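Cell cycle genes were at least 1.5-fold lower in KO than in Het for 5 of 20 members, with 1 higher, Gadd45a. Among all tested genes 3.64% were lower and 1.3% higher. The list summed to 1277, 1459, 1486 and 1320.5 CPM. Birc5, which guards chromosome separation, was at 0.550, 3.72, 11.6 and 3.68 CPM and 3.15-fold (1.97 to 5.21) lower in KO, and Top2a, a DNA topoisomerase, at 0.550, 4.53, 8.70 and 2.92 CPM and 2.98-fold (1.75 to 5.31) lower. Cdk1, the kinase that drives mitosis, was 2.26-fold (1.51 to 3.45) lower. The highest library for these 3 genes was Het.

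Of 20 immediate early and dissociation genes 2 were lower in KO, both heat shock chaperones. Hspa1a was at 143, 111, 230.4 and 101 CPM, so Het stood above the other 3 libraries, and KO was 2.29-fold (2.09 to 2.52) below it. Its near-identical copy Hspa1b was 3.38-fold (2.43 to 4.79) lower, and reads of the 2 copies are hard to tell apart. Within clusters Hspa1a was lower in KO by 3.22-fold (2.48 to 4.23) in cluster 01, 5.30-fold (3.64 to 7.93) in cluster 06 and 4.89-fold (3.44 to 7.02) in cluster 08. In cluster 01 the chemokine gene Ccl2 was 4.37-fold (2.71 to 7.37) higher in KO, and in cluster 02 Psat1, an enzyme of serine synthesis, was 2.14-fold (1.59 to 2.91) higher. In cluster 06 the transcription factor Klf6 was 3.54-fold (2.34 to 5.497) lower.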
